A study of Mus musculus with 12 samples.

Results

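Neurons, astrocytes and oligodendrocytes surround microglia in the brain, and the transcripts that mark them are the usual test of how clean a microglial preparation is. The 33 genes described here are such markers: 15 of neurons, 8 of astrocytes and 10 of the oligodendrocyte lineage. The last group holds 5 genes of myelinating cells, 3 lineage transcription factors and 2 genes of oligodendrocyte precursor cells (OPC). The members were found by their gene symbol in the table of raw counts, and each of the 33 stood on 1 of its 53801 rows.

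The libraries came from microglia of mice of both sexes at 2 to 3 months of age, 72 h after the left middle cerebral artery had been blocked for 60 min and reopened. Control mice (WT) were Cx3cr1-CreER+/-; Nhe1+/+ and conditional knockouts (cKO) were Cx3cr1-CreER+/-; Nhe1f/f, in which the CreER recombinase of Cx3cr1-expressing cells removes Nhe1, the gene for a sodium/proton exchanger. Both genotypes carry the Cre allele and both received tamoxifen (75 mg/kg a day for 5 days from postnatal day 30 to 40), at least 30 days before the occlusion. From each genotype there were 3 libraries of the contralateral (CL) hemisphere and 3 of the ipsilateral (IL), ischemic hemisphere, all from cells pulled down on a magnetic column with an antibody to P2RY12. The CL hemisphere belongs to an injured brain and is not a sham control. Cx3cr1 is also used by monocytes and macrophages, so the Cre line marks more than microglia. The libraries are called A, B and C in WT and D, E and F in cKO, a CL and an IL library with the same letter carrying the same number in their column names. The libraries of a group came from separate animals, and whether a CL and an IL library of 1 number came from the same animal is not stated in the sources used here.

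Neuronal transcripts encode the machinery of neurotransmitter release, excitability and the axonal cytoskeleton. Astrocytes clear glutamate, couple through gap junctions and move water, and oligodendrocytes wrap axons in myelin after arising from OPC under the control of OLIG1, OLIG2 and SOX10. Microglia engulf dying neurons and myelin debris after ischemia. In bulk RNA, fewer cells of a type and less RNA per cell cannot be told apart.

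Depth was uneven. The totals were 2091512 to 12647526 counts in WT CL, 18425180 to 25166928 in WT IL, 9743603 to 20349883 in cKO CL and 43961276 to 47256174 in cKO IL. Levels are given as CPM, counts relative to the library total after scaling by the trimmed mean of M values (TMM), and a floor of 3 counts was worth between 0.0888 CPM in the deepest library and 0.880 CPM in WT CL-C, the shallowest. The 19 microglia markers summed to 6990 to 15320 CPM, with Tmem119 and P2ry12 present in every library. Libraries stood apart within the groups: WT CL-A held most of the endothelial and monocyte signal of its group (1057 CPM over 11 genes against 115 and 122, and 6020 CPM over 7 genes against 125 and 249), WT CL-C was the shallowest, and WT IL-C had the highest monocyte sum of its group (7131 CPM against 509 and 3391). Where 1 of these libraries turned a value or moved it far, the value without it is given too.

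The promoters of Chga and Cspg4 are shown because these were the only members whose difference passed edgeR's test. The windows run from 250 bases before to 50 after the transcription start and come from RefSeq (GRCm38.p6), which gave a window for 24 of the 33 members. Capitals mark TGACGTAA (a variant of the cyclic AMP response element), TATAAA and GGGCGG (GC box), searched on both strands without overlap between them, the first of them chosen after the sequence had been read. Of 32851 windows in the table, 0.499% held TGACGTAA, 13.6% TATAAA and 35.7% GGGCGG.
Chga (chr12:102554691-102554990, plus strand): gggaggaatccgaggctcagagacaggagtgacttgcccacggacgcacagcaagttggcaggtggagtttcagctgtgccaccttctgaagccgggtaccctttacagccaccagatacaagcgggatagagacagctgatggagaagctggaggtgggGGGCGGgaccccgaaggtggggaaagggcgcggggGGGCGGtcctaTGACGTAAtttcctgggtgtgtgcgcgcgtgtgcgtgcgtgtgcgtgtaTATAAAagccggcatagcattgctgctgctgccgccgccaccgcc
Cspg4 (chr9:56864854-56865153, plus strand): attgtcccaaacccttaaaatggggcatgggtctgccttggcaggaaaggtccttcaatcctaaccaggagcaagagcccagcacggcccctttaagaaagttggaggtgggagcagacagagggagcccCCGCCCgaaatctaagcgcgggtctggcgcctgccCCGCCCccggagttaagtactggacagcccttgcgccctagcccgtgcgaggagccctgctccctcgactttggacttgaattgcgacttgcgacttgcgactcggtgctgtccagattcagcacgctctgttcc
The Chga window held all of these motifs, and the Cspg4 window held GC boxes only, on the minus strand. A match is a description of the letters, not of binding.

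The first question was how much signal of other brain cells these microglial libraries held. Together the 33 members took 0.0511 to 0.169% of all counts of a library, while the 19 microglia markers took 0.557 to 2.04%. In WT the neuronal members summed to 219 ± 104 CPM in CL and 86.9 ± 25.2 in IL, and in cKO to 191 ± 36.6 and 46.7 ± 6.77 (SD, n = 3 each). The astrocyte members, most of them by level Glul, summed to 697 ± 335 and 697 ± 217 CPM in WT and to 767 ± 215 and 605 ± 228 in cKO. The oligodendrocyte lineage summed to 213 ± 84.7 and 199 ± 36.2 CPM in WT and to 193 ± 21.1 and 317 ± 37.7 in cKO. The neuronal sum was lower in IL in both genotypes without overlap between IL and CL libraries, also when levels were scaled to library totals or by TMM from genes of at least 50 CPM. Without Map2 the WT libraries overlapped, at 95.0 to 297 CPM in CL and 54.7 to 98.8 in IL. The other sums depended on the scaling. With TMM from genes of at least 50 CPM the astrocyte sum too was lower in IL without overlap, at 957 and 581 CPM in WT and 940.0 and 404 in cKO. In cKO the oligodendrocyte lineage sum was higher in IL without overlap under TMM. It turned to 245 CPM in CL and 215 in IL with TMM from genes of at least 50 CPM. With library totals it was 247 and 219.7. Both settings gave overlap, so no direction is given for this sum. Its largest rise under TMM was that of Cspg4, also a gene of pericytes, from 31.9 CPM in CL to 147 in IL. Mbp went from 49.7 to 97.9 CPM and Cnp from 22.4 to 44.4, while the other 7 lineage members had negative fold changes. The sum without Cspg4 was not taken.

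**Figure D1:**
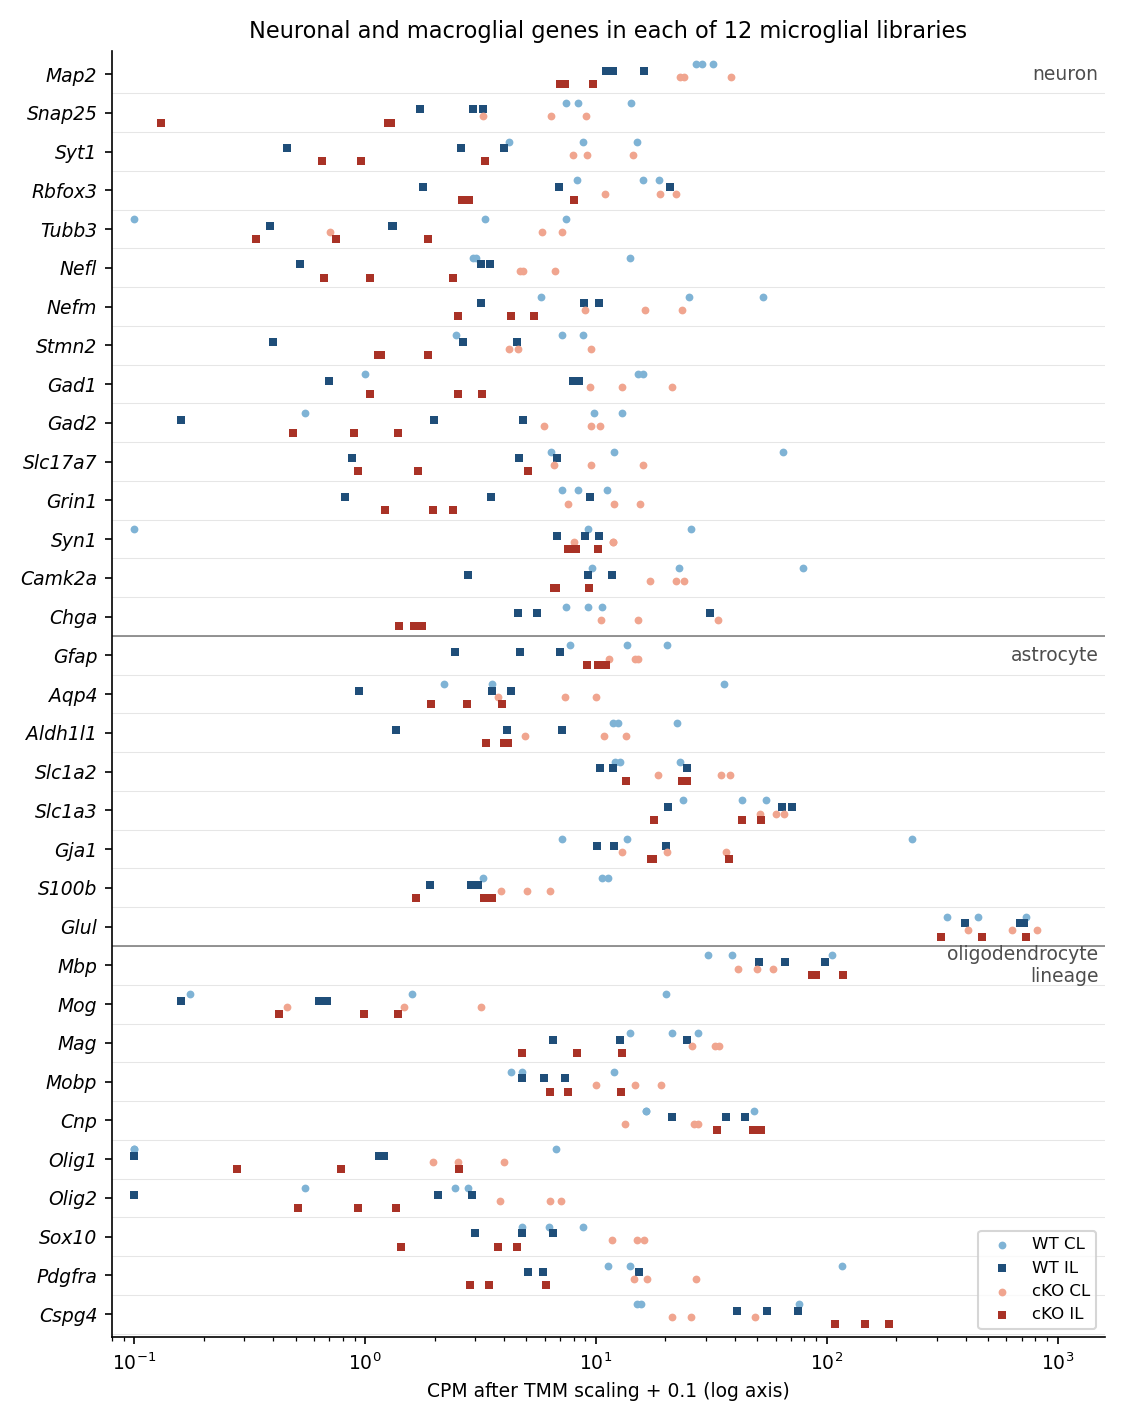
Level of each of the 33 members in each of the 12 libraries, in CPM after TMM scaling plus 0.1 on a log axis, with 1 point per library and the 4 groups by colour. Glul lies at 311 to 818 CPM, most neuronal members lie to the left in the IL libraries (squares), and Cspg4, Mbp and Cnp in cKO IL lie to the right of their cKO CL points.

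Levels between genes were compared per kilobase of exon (CPM per kb, group means). Glul, the glutamine synthetase of astrocytes that macrophages also make, was at 152 CPM per kb in CL and 181 in IL of WT, and at 186 and 152 in cKO. It was the only member above the lowest of the 19 microglia markers in any group, and it lay above the microglia median of 92.7 to 103 CPM per kb in all 4. Slc1a3, Mbp, Cnp and Cspg4, singled out with Glul after their values had been seen, lay between 2.68 and 12.3 CPM per kb. Other members reached that range in some groups, such as Mag at 7.62 in cKO CL and S100b at 5.59 in WT CL. These 5 genes summed to 665 ± 207 CPM in CL and 816 ± 160 in IL of WT, and to 783 ± 237 and 831 ± 234 in cKO, within the spread between libraries. The other 28 members summed to 463 ± 126 and 167 ± 62.7 CPM in WT and to 369 ± 49.9 and 138 ± 11.2 in cKO. Because the 5 were chosen on these data, the contrast between the sums follows from that choice and is no result. Counted over all 33 members, the log2 fold change between the hemispheres was negative for 27 in WT and for 29 in cKO. The median over all genes tested was itself negative, at -0.31 in WT and -1.33 in cKO.

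Against these levels a list of 30 genes that define other organs was set, such as Myh6 and Tnnt2 of heart, Umod and Slc12a1 of kidney and Krt5 of skin. Their median was 1.87 CPM per kb in CL and 0.460 in IL of WT, and 1.48 and 0.295 in cKO. The median neuronal member was at 1.88 and 0.733 CPM per kb in WT and at 1.89 and 0.458 in cKO. Of 15 neuronal members, 8 to 11 lay above the organ median, depending on the group, and none lay above the highest organ gene (16.9 to 25.8 CPM per kb). The astrocyte median was 4.07 and 1.27 CPM per kb in WT and 2.77 and 2.09 in cKO, and the oligodendrocyte lineage median 3.59 and 1.20 in WT and 2.45 and 1.16 in cKO.

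Across the libraries the neuronal sum spanned 8.19-fold, from 40.2 CPM in cKO IL-E to 329 CPM in WT CL-C. The 2033 genes of olfactory, vomeronasal, taste and trace amine receptors, known from sensory cells of nose and tongue, took 0.0241 to 1.07% of counts, least in WT IL-C and most in WT CL-C. For every 100 counts of these receptors there were 3.91 to 9.11 counts of the 15 neuronal members in 11 of the 12 libraries. WT IL-C had 19.7, and 10.4 when Chga was left out. The part of whatever gives counts to these receptor and organ genes in the neuronal levels was not tested.

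**Figure D2:**
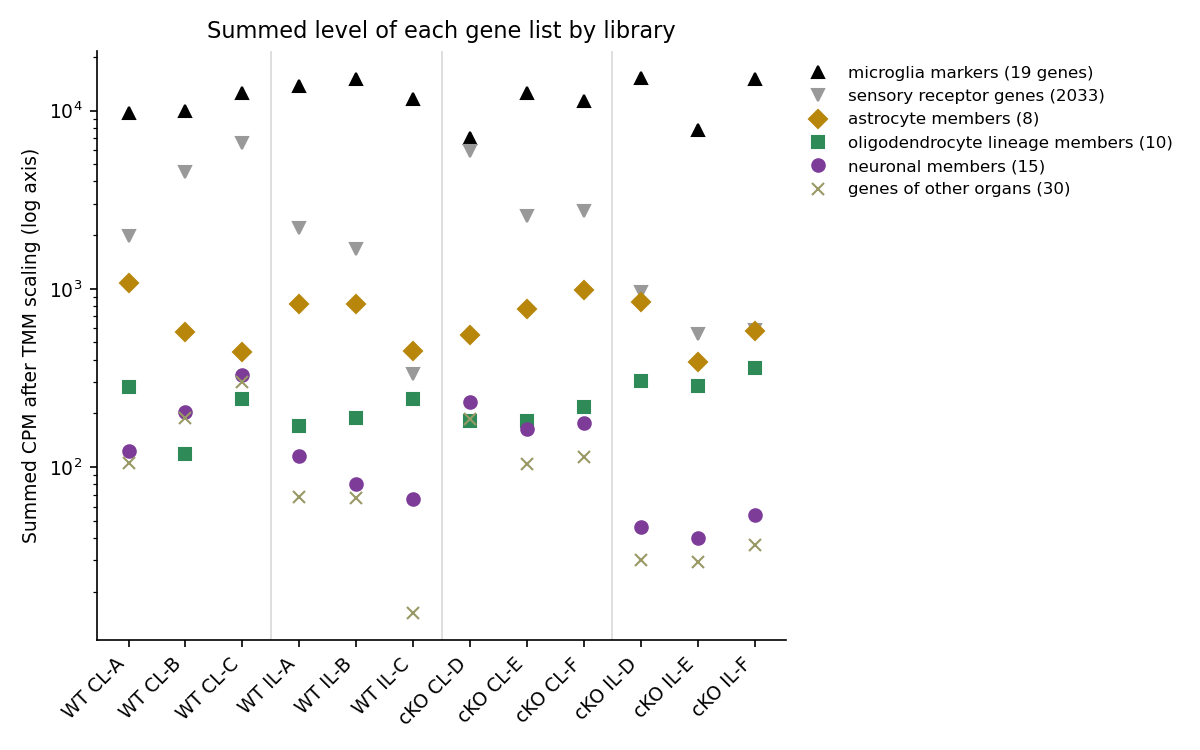
Summed CPM after TMM scaling (log axis) of 6 gene lists in each library, ordered by group. The neuronal members are lowest in the cKO IL libraries (40.2 to 53.7 CPM), the genes of other organs and the sensory receptor genes are lowest in WT IL-C (15.1 and 334 CPM), and the microglia markers stay between 6990 and 15320 CPM.

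The second question was what differed between the ischemic and the other hemisphere in each genotype. All 33 members passed the filter on low counts and were tested among 35674 genes with edgeR's quasi-likelihood test. In WT, none of the 33 was called between IL and CL at an adjusted p under 0.05, where 0.608% of all genes were (0.538% higher and 0.0701% lower). At an unadjusted p under 0.05 there were 10 members, all lower in IL, 30.3% of them against 18.3% of all genes in either direction. DESeq2 called 8, all lower (Map2, Nefm, Slc17a7, Camk2a, Gfap, Aldh1l1, S100b and Mog), 25.8% of the 31 members to which it gave an adjusted p, where it called 9.06% of all genes lower and 4.17% higher, and voom with quality weights called 0. In cKO, edgeR called 1 member lower in IL, Chga, where 0.513% of all genes were called lower, and 1 higher, Cspg4, where 2.94% were called higher (3.46% either way). At an unadjusted p under 0.05 there were 14 lower and 1 higher, 45.5% against 24.0% of all genes. DESeq2 called 13 of 31 lower, or 41.9%, where it called 13.7% of all genes lower, and Cspg4 higher, where it called 5.06% higher. Voom called 17 lower, where it called 28.5% of all genes lower, and 2 higher, Mbp and Cspg4, where it called 14.8% higher.

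The median over all genes was itself below 0, at -0.31 on the log2 scale in WT and -1.33 in cKO, and it depends on the scaling. With library totals it was -0.82 and -2.26, and with TMM taken from genes of at least 50 CPM -1.05 and -2.30. The same choice turns the balance of all calls in cKO from 1050 higher and 183 lower under TMM to 301 higher and 1127 lower under library totals. Each fold change of a member is therefore to be read beside these medians.

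Among the neuronal members the median log2 fold change of IL over CL was -1.52 in WT and -2.21 in cKO, which is -1.21 and -0.89 relative to all genes. The 30 genes of other organs, 28 of them tested, had a median of -2.06 in WT and -2.40 in cKO, with 26 and 28 negative. In cKO all 15 neuronal members were negative and 13 had 3 IL libraries below all 3 CL libraries. Over the 33 members that held for 20, or 60.6%, where it held for 35.9% of all genes. In WT it held for 6, or 18.2%, against 6.62%, and no member had the reverse pattern, which 10.3% of all genes had.

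**Figure D3:**
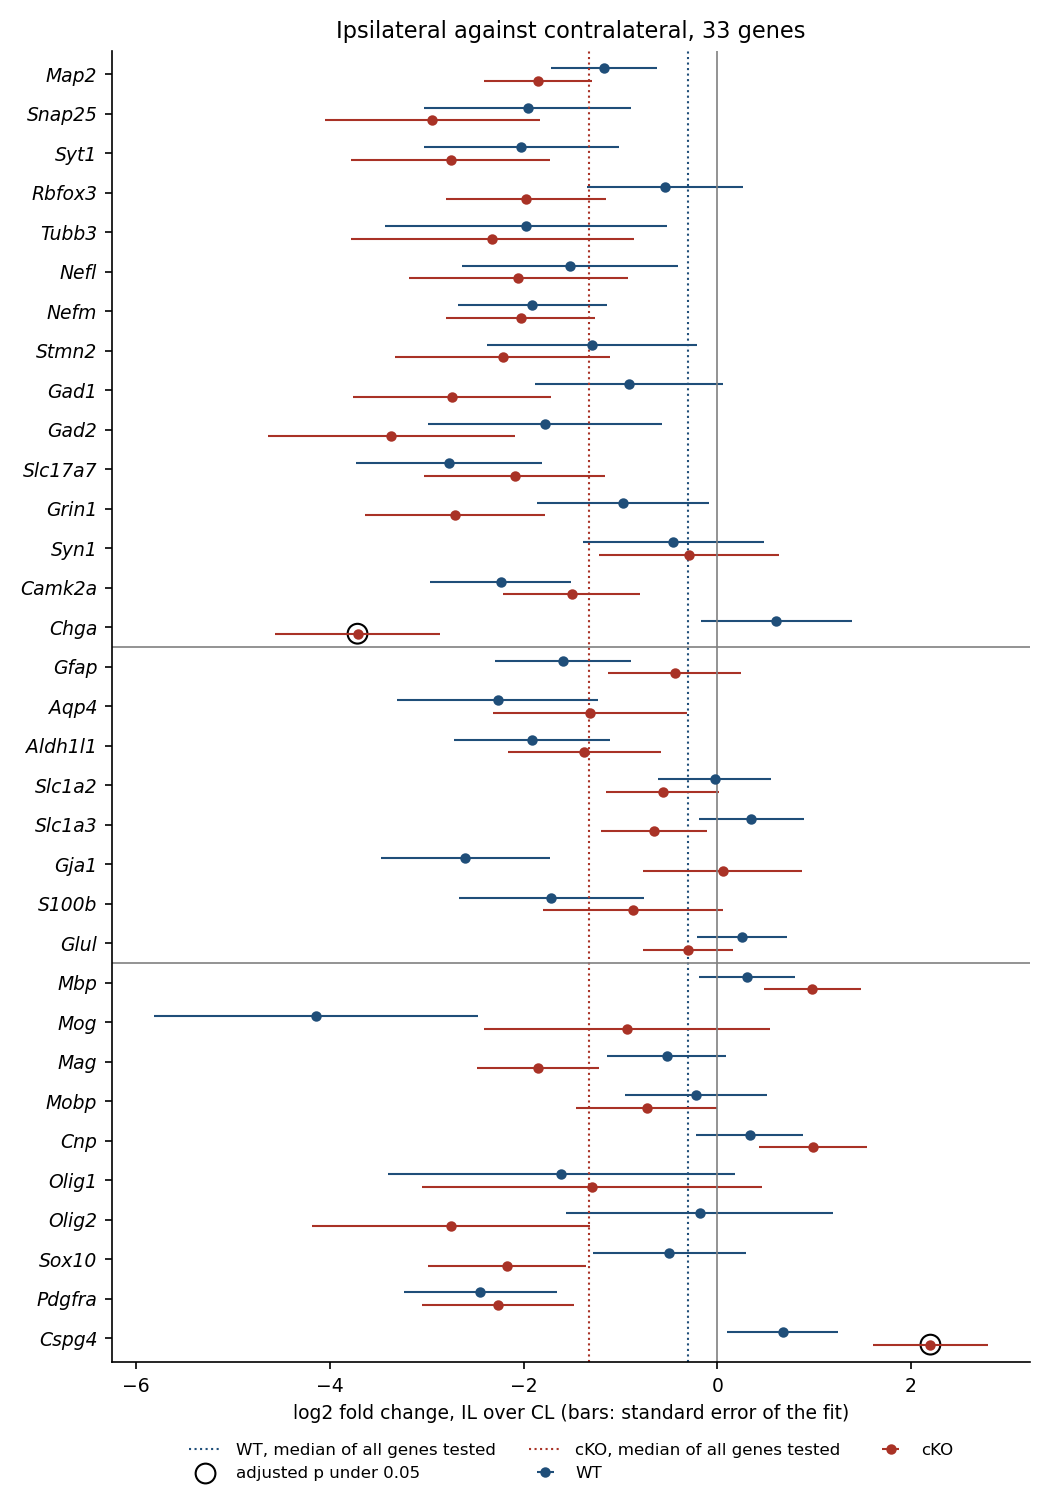
Log2 fold change of IL over CL with the standard error of edgeR's fit for the 33 members, in WT (blue) and cKO (red), with dotted lines at the median of all genes tested (-0.31 and -1.33) and black circles where the adjusted p is under 0.05. Chga and Cspg4 in cKO are the circled values, at -3.72 and 2.20.

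The synaptic members carry the release machinery. Snap25, a SNARE protein, was at 7.31, 8.25 and 14.1 CPM in CL and 3.15, 1.64 and 2.82 in IL of WT. In cKO it was at 8.91, 6.31 and 3.15 CPM in CL and 1.19, 1.15 and 0.0306 in IL, the last being 1 count. The IL libraries lay below the CL libraries of the same genotype in both genotypes. Its log2 fold change was -1.96 ± 1.07 (SE) in WT and -2.94 ± 1.11 in cKO, with edgeR adjusted p of 0.33 and 0.13. Syt1, the calcium sensor of vesicles, was at 9.25 ± 5.45 CPM in CL and 2.25 ± 1.78 in IL of WT, and at 10.4 ± 3.45 and 1.54 ± 1.46 in cKO (SD, n = 3 each), without overlap between IL and CL in either genotype.

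Syn1, a synaptic vesicle phosphoprotein, lay apart from them. It was at 7.47, 10.1 and 8.11 CPM in cKO IL against 7.97, 11.8 and 11.7 in cKO CL, with overlapping groups and a log2 fold change of -0.29 ± 0.93, the smallest in size of the 15. In WT CL-C it had 0 counts, and in WT CL-A it was at 25.7 CPM. Timp1, an inhibitor of matrix proteases, lies inside the span of Syn1 on the other strand, and the strand setting of the counting is not given in the sources used here.

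The transmitter genes varied widely between libraries of a group. Slc17a7, the vesicular glutamate transporter of excitatory neurons, was at 6.27, 11.8 and 64.5 CPM in CL and 6.70, 4.54 and 0.781 in IL of WT. In cKO it was at 15.8, 9.39 and 6.51 CPM in CL and 1.59, 0.829 and 4.99 in IL, without overlap. The WT CL mean of 27.6 CPM rests on WT CL-C, and the WT fold change of -2.77 ± 0.96 became -1.02 ± 0.86 without that library. Gad1 and Gad2, which make GABA, were at 10.6 ± 8.44 and 7.70 ± 6.48 CPM in WT CL, and WT CL-A was far below its group with 0.895 and 0.448 CPM. In cKO the Gad1 fold change was -2.74 ± 1.02 and that of Gad2 -3.37 ± 1.28, with edgeR adjusted p of 0.12 and 0.13. Grin1, the obligate NMDA receptor subunit, had -0.98 ± 0.89 in WT and -2.71 ± 0.93 in cKO (adjusted p = 0.58 and 0.0998), and Grin1os, a gene on the other strand, shares 1307 exon bases with it.

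Of the soma and cytoskeleton genes, Map2, which binds dendritic microtubules, varied little within a group. It was at 28.6, 27.0 and 32 CPM in CL and 16, 11.8 and 11 in IL of WT. In cKO it was at 38.4, 23.1 and 24.1 CPM in CL and 7.22, 6.87 and 9.58 in IL. Its IL values lay below its CL values in both genotypes, and the cKO IL libraries lay below the WT IL libraries too. The log2 fold change was -1.17 ± 0.55 in WT and -1.85 ± 0.56 in cKO, with edgeR adjusted p of 0.26 and 0.065, so it missed the threshold there, while DESeq2 called it in both. Relative to the median of all genes its cKO value was -0.52.

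Camk2a, a kinase of excitatory synapses, was at 9.55, 22.8 and 78.6 CPM in CL and 11.6, 9.12 and 2.70 in IL of WT, with overlap (-2.24 ± 0.73, and -0.89 ± 0.64 without WT CL-C). In cKO it was at 24.0, 22.2 and 17.0 in CL and 6.60, 6.46 and 9.21 in IL, without overlap (-1.50 ± 0.71, adjusted p = 0.20). Rbfox3, the NeuN splicing factor, differed by -0.54 ± 0.80 in WT and -1.97 ± 0.83 in cKO. Nefm, the medium neurofilament chain, had -1.91 ± 0.77 (-0.88 ± 0.71 without WT CL-C) and -2.03 ± 0.77, and Nefl, the light chain, -1.52 ± 1.11 and -2.06 ± 1.13. Nefl and Nefm share 1108 exon bases on opposite strands, so the counts of this pair are uncertain. Tubb3, the neuronal tubulin, and Stmn2, a regulator of microtubules, stayed between 0 and 9.45 CPM in every library.

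Chga, the chromogranin A of dense-core granules (chr12:102554969-102565028), was the neuronal member whose fall passed the test. It was at 10.5, 15.2 and 33.6 CPM in cKO CL and at 1.30, 1.66 and 1.53 in cKO IL. The 3 IL libraries lay close together and far below all 3 CL libraries. Its log2 fold change was -3.72 ± 0.86 (SE, edgeR adjusted p = 0.024), or -2.39 relative to all genes. In WT it was at 7.31, 9.15 and 10.6 CPM in CL and 5.48, 4.50 and 31.2 in IL, where WT IL-C alone was high, and the fold change was 0.61 ± 0.78 (adjusted p = 0.71). The difference between the responses of the genotypes was -4.33 ± 1.14 and did not pass the test (adjusted p = 1.0 across all genes). In the IL libraries alone cKO lay below WT by -3.19 ± 0.84 (adjusted p = 0.997), with no overlap. Without WT IL-C these values were -2.88 ± 1.08 and -1.73 ± 0.80. The cKO call was lost on leaving out any of the 6 cKO libraries, with adjusted p of 0.070 to 0.12 and fold changes of -3.09 to -3.87.

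A list of 9 further genes describes the dense-core granules. In cKO all 9 were negative with a median of -2.74, and 0 were called by edgeR. For 6 of them IL lay wholly below CL, as for 35.9% of all genes and 19 of the 28 tested genes of other organs. At an unadjusted p under 0.05 in edgeR's test 4 were lower, where 24.0% of all genes passed in either direction. Scg2, secretogranin II, was at 45.4 CPM in WT IL-C and 25.9 in cKO CL-F, and at 0.184 to 7.04 CPM in the other 10 libraries. These are the same libraries in which Chga was highest, at 31.2 and 33.6 CPM. Ttr, the transthyretin of choroid plexus, was at 215 CPM in WT IL-C and 1220 CPM in cKO CL-F, but also at 299.5 and 99.4 CPM in cKO IL-E and cKO IL-F, where Chga was at 1.66 and 1.53. Over the 7 ependymal and choroid plexus markers, the sum was 83.6 to 1348 CPM in cKO CL and 12.6 to 327 CPM in cKO IL, with Tmem212 at 0 in 2 libraries, both of them WT CL. Their part in the Chga result was not tested.

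**Figure D4:**
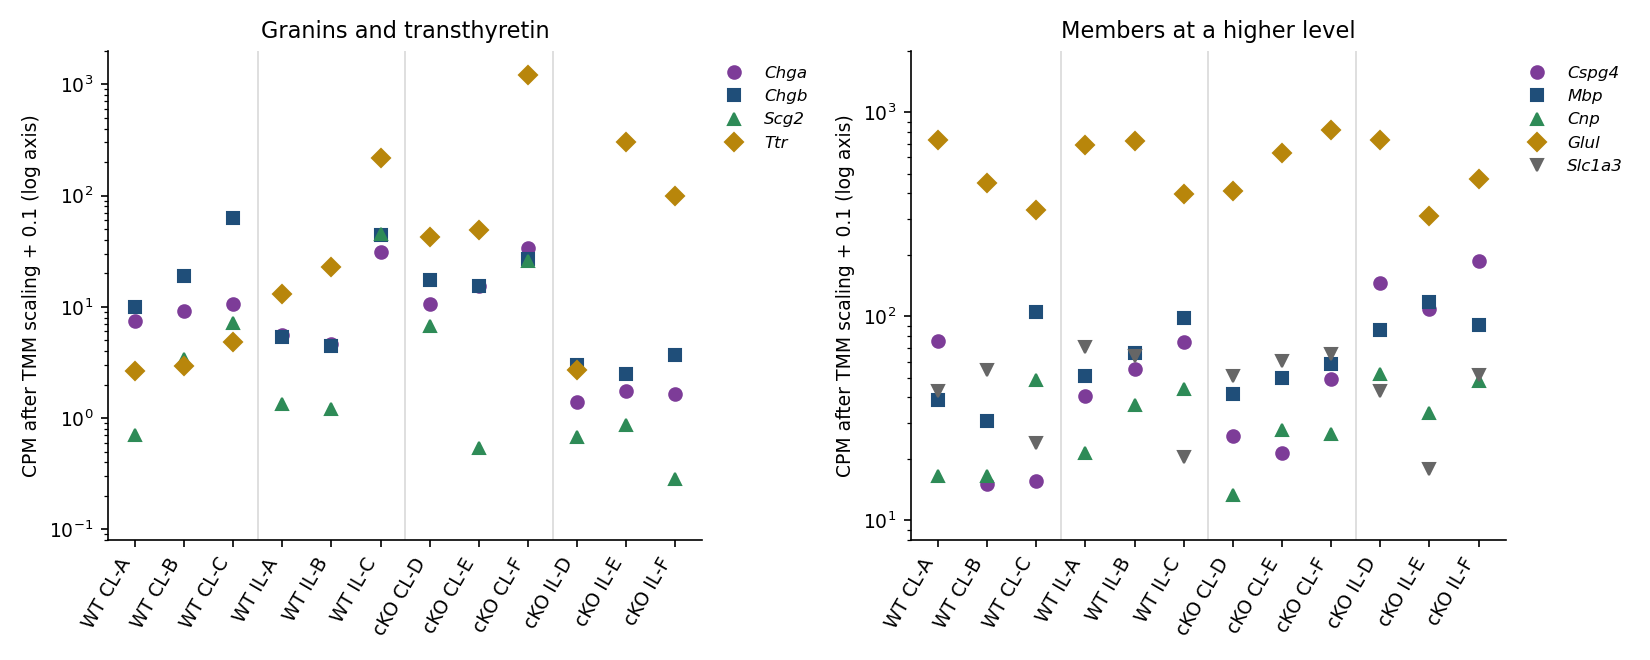
Level in each library (CPM after TMM scaling plus 0.1, log axis) of Chga, Chgb, Scg2 and Ttr at left and of Cspg4, Mbp, Cnp, Glul and Slc1a3 at right. Chga peaks in WT IL-C and cKO CL-F and lies at 1.30 to 1.66 CPM in cKO IL, while Cspg4 in cKO IL (109 to 186 CPM) lies above every other library.

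Further neuronal genes were read from a list of 45. In cKO, 43 of the 45 were negative with a median of -2.19, and edgeR called 1 lower and 1 higher. In WT, 38 were negative with a median of -1.54, and edgeR called 1 higher. Each of these calls was lost on leaving out at least 1 library. A list of 5 neuronal long noncoding RNAs, Meg3 among them, had all 5 negative in both genotypes with medians of -2.59 and -2.37. EdgeR called 0 of them, with 2 and 3 lower at an unadjusted p under 0.05, where 18.3 and 24.0% of all genes passed either way.

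Of the 8 astrocyte members edgeR called 0 in either genotype. At an unadjusted p under 0.05, 4 were lower in WT and 0 in cKO, where 18.3 and 24.0% of all genes passed either way. The astrocyte medians were -1.65 and -0.61, the second above the median of all genes. Gfap, the intermediate filament that reactive astrocytes raise, was at 20.3, 13.5 and 7.63 CPM in CL and 6.88, 4.58 and 2.34 in IL of WT. In cKO it was at 14.6, 11.3 and 15.1 CPM in CL and 10.9, 10.2 and 9.06 in IL. The IL values lay below the CL values in both genotypes, and cKO IL lay above WT IL without overlap (1.13 ± 0.69, edgeR adjusted p = 0.997).

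Gja1, connexin 43 of gap junctions, was at 232.8 CPM in WT CL-A and at 7.04 to 37.6 CPM in the other 11 libraries. Its WT fold change of -2.60 ± 0.87 became 0.70 ± 0.72 without that library, so no direction is given for it. Aqp4, the water channel of astrocyte endfeet, was likewise at 35.8 CPM in WT CL-C and at 0.841 to 9.90 elsewhere, and its WT value of -2.27 ± 1.04 became 0.16 ± 0.97 without it. Aldh1l1, a folate enzyme, had WT values of 22.4, 11.7 and 12.3 CPM in CL and 7.05, 4.01 and 1.26 in IL, without overlap (-1.91 ± 0.81, edgeR adjusted p = 0.22). S100b, a calcium-binding protein, lay lower in IL without overlap in both genotypes, at -1.72 ± 0.95 and -0.87 ± 0.93.

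The glutamate transporters take up what synapses release. Slc1a3 (GLAST) was at 40.3 ± 15.4 CPM in CL and 51.6 ± 27.2 in IL of WT, and at 58.9 ± 7.13 and 37.4 ± 17.6 in cKO (SD, n = 3 each). Slc1a2 (GLT-1) was at 15.9 ± 6.14 and 15.6 ± 7.99 CPM in WT and at 30.3 ± 10.5 and 20.5 ± 6.23 in cKO. Neither separated IL from CL, with fold changes between -0.66 and 0.35. Glul differed by 0.25 ± 0.47 in WT and -0.30 ± 0.47 in cKO, within the spread between libraries.

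Of 21 other astrocyte genes edgeR called 0 in each genotype. At an unadjusted p under 0.05, 1 was higher and 7 lower in WT and 8 lower in cKO (all genes either way: 18.3 and 24.0%). Among 11 genes of reactive astrocytes, 9 were negative in WT (median -0.53) and 6 in cKO (median -0.65). Of the others, edgeR called the receptor Cd44 higher in both genotypes and the filament Vim higher in cKO. In WT Cd44 went from 46.1 ± 19.9 to 421 ± 357 CPM, with overlap between IL and CL libraries (3.19 ± 0.65, edgeR adjusted p = 0.036). In cKO it went from 40.1 ± 5.88 to 911 ± 345 CPM (4.51 ± 0.69, edgeR adjusted p = 0.0087). Vim went from 104 ± 55.2 to 2646 ± 959 CPM in cKO (4.66 ± 0.90, adjusted p = 0.012). Both are also used by activated myeloid cells, and the monocyte sum was 216 to 569 CPM in cKO CL and 6757 to 17108 in cKO IL. Its part in these changes was not tested. The WT call of Cd44 was lost in 9 of 24 alternatives. Among them were the fit with the library number as a block (edgeR adjusted p = 0.197), that on the 6 WT libraries alone (0.454), library totals (0.0595), and leaving out WT CL-B (0.0542) or WT IL-C (0.243). The cKO call of Cd44 was lost without cKO CL-D, and that of Vim without any one cKO CL library.

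The oligodendrocyte lineage held values on both sides of 0. Cspg4, the NG2 proteoglycan of OPC and pericytes (chr9:56865033-56899870), rose in cKO and was the only member called higher. It was at 25.7, 21.2 and 48.9 CPM in cKO CL and at 146, 109 and 186 in cKO IL, so that the lowest IL library lay well above the highest CL library. The log2 fold change was 2.20 ± 0.59 (SE, edgeR adjusted p = 0.043). In WT it was at 75.6, 15 and 15.6 CPM in CL and 40.6, 55.0 and 74.7 in IL, with WT CL-A above the IL values, and 0.67 ± 0.57 (adjusted p = 0.56). Without WT CL-A, edgeR called it in WT as well. That library also had the highest mural sum of its group, 385 CPM over 8 genes against 115 and 72.5, and the part of it in the WT value was not tested.

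In IL alone, cKO lay above WT for Cspg4 by 1.37 ± 0.58 without overlap (edgeR adjusted p = 0.997), and the responses of the genotypes differed by 1.53 ± 0.81 (adjusted p = 1.0). The cKO call held in 12 of 24 alternatives, over which the fold change was 1.32 to 2.65. It was lost on leaving out any of the 6 cKO libraries (adjusted p = 0.0631 to 0.189) or WT IL-B (0.0510), when counts were thinned to the smallest total, and under each of the 4 other scalings of the edgeR fit. The 8 mural markers, among which pericytes count, summed to 131 to 267 CPM in cKO CL and 95.0 to 174 in cKO IL. EdgeR called 0 of 8, with 1 lower at an unadjusted p under 0.05, where 24.0% of all genes passed either way.

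Pdgfra, the growth factor receptor of OPC, lay on the other side. It was at 27.1, 16.6 and 14.6 CPM in cKO CL and 2.74, 3.35 and 6.0 in cKO IL, without overlap (-2.27 ± 0.79, edgeR adjusted p = 0.101). In WT CL-A it was at 116 CPM against 13.9 and 11.1 in its group, and the WT fold change of -2.45 ± 0.79 became -0.26 ± 0.76 without that library. Of 12 other OPC genes, 11 were negative in cKO with a median of -2.13. Tnr, tenascin-R of perineuronal matrix, fell from 26.3 ± 5.69 to 3.17 ± 1.84 CPM (-3.05 ± 0.72, adjusted p = 0.027). Xylt1, which starts the sugar chains of proteoglycans, rose from 40.4 ± 2.12 to 283 ± 56.9 CPM (2.81 ± 0.51, adjusted p = 0.0102). Both calls were lost without any one of the 3 cKO CL libraries, and that of Tnr also without any one of the cKO IL libraries.

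The myelin genes lay on both sides. Mbp, myelin basic protein, was at 41.3, 49.5 and 58.1 CPM in cKO CL and 86.0, 118 and 90.01 in cKO IL, and Cnp, a phosphodiesterase of myelin, at 13.2, 27.6 and 26.4 against 51.9, 33.5 and 48.0. For both the IL libraries lay above the CL libraries (0.98 ± 0.50 and 0.99 ± 0.56), but edgeR's adjusted p were 0.23 and 0.26. With library totals the fold changes were 0.11 ± 0.50 and 0.15 ± 0.56. Over the 33 members, Cspg4, Mbp and Cnp were the 3 with that pattern, 9.09% where 18.5% of all genes had it. Cnp shares 154 exon bases with Dnajc7.

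Mag, the myelin-associated glycoprotein, was at 26.1, 34.1 and 32.9 CPM in cKO CL and 8.16, 4.68 and 12.9 in cKO IL (-1.85 ± 0.63, edgeR adjusted p = 0.097). Mog, the outermost myelin protein, was at 0.0601 to 3.08 CPM in 11 libraries and at 19.95 CPM in WT CL-C, without which its WT fold change of -4.15 ± 1.67 became -0.78 ± 1.80. Mobp, a basic protein of the compact sheath, stayed between 4.18 and 19.1 CPM. Of 23 further oligodendrocyte genes, 20 were negative in each genotype and edgeR called 0. At an unadjusted p under 0.05, 8 were lower in WT and 4 in cKO (all genes either way: 18.3 and 24.0%).

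The lineage factors had few counts. Olig1 had 0 counts in WT CL-A, WT CL-C and WT IL-C, and Olig2 had 0 in WT IL-C, where 0 counts allow up to 0.224, 0.880 and 0.180 CPM. Olig2 was at 6.97, 6.20 and 3.75 CPM in cKO CL and 0.830, 0.415 and 1.26 in cKO IL (-2.75 ± 1.44, edgeR adjusted p = 0.23). Sox10 was at 15, 11.6 and 16 CPM in cKO CL against 1.34, 3.67 and 4.44 in cKO IL (-2.17 ± 0.81, adjusted p = 0.12). Sox10 and Olig2 were also the 2 members with all cKO CL libraries above all WT CL libraries, 6.06% of the members where 9.27% of all genes had that pattern. No member had the reverse pattern, which 1.38% of all genes had.

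The third question was whether the genotypes differed. Between cKO and WT, edgeR called 0 of the 33 in CL and 0 in IL, where 0.0% of all genes were called in each. At an unadjusted p under 0.05 stood Gja1 in CL (-1.87 ± 0.85, but 1.26 ± 0.74 without WT CL-A), and Chga and Cspg4 in IL, that is 3.03 and 6.06% of the members against 4.72 and 2.36% of all genes. DESeq2 called 0 members in both, where it called 0.0995% of all genes higher and 0.0446% lower in CL and 0.00813% and 0.00406% in IL, and voom called 0 in CL and, in IL, Cspg4 higher, where it called 7.23% of all genes higher and 4.68% lower. Map2, Snap25 and Chga had cKO IL wholly below WT IL, 9.09% of the members against 4.39% of all genes, and Gfap and Cspg4 wholly above, 6.06% against 4.83%.

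In IL the neuronal median was -0.89 and all 15 estimates were negative, which were 11 of 15 with a median of -0.46 without WT IL-A and 12 of 15 with a median of -0.68 with no filter on low counts, while the median of all genes was -0.24 and that of the genes of other organs -0.96. In CL the neuronal median was 0.00 and that of all genes 0.23. The interaction, which asks whether the response to ischemia differed by genotype, was called by edgeR for 0 members and 0.0% of all genes, with Chga and Gja1 at an unadjusted p under 0.05 (6.06% against 3.8% of all genes). DESeq2 called 0 members there, and 0.012% of all genes higher and 0.0144% lower. The Gja1 value, 2.66 ± 1.18, became -0.25 ± 0.95 without WT CL-A.

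Which library was highest differed by class. Of 33 members, 29 had their highest level in a CL library, 8 of them in WT CL-C and 6 in WT CL-A. The 4 with their highest level in an IL library were Slc1a3, Mbp, Cnp and Cspg4. This count was not taken over all genes, whose median IL over CL was itself negative (-0.31 in WT and -1.33 in cKO). It is therefore no trait of the members alone. Within WT CL, 9 of 15 neuronal members were highest in WT CL-C and 11 were lowest in WT CL-A, and within cKO CL 12 of 15 were highest in cKO CL-D, the shallowest of that group. Within WT IL, 11 were highest in WT IL-A and 11 lowest in WT IL-C. Without WT CL-A and WT CL-C, which leaves 1 library in that group, edgeR called 0 members in WT and 11 in cKO, of which 8 were lower (Map2, Gad1, Gad2, Grin1, Chga, Mag, Sox10 and Pdgfra) and 3 higher (Mbp, Cnp and Cspg4). All genes had more calls there as well, with 3.95% lower and 11.2% higher. That setting was chosen after the data had been seen. The cKO libraries are the same in both fits, so what differs is the scaling, the genes kept and the shared estimate of spread.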

How the data were processed

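The deposited table holds raw counts per gene, which the authors made by trimming reads, removing ribosomal and mitochondrial reads and aligning the rest to the mouse build mm10 (STAR, version 2.5.3a, run inside Partek Flow, version 8.0). The libraries were made with a stranded total RNA kit. The annotation release and the strand setting of the counting are not given in the sources used here, and overlapping genes are named as uncertain. Of 53801 gene IDs, 53706 matched GENCODE vM21, which gave positions and exon lengths.

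Counts were filtered with filterByExpr, scaled by TMM (factors 0.618 to 1.64) and fitted over 12 libraries with edgeR 4.0.16 (R 4.3.3, quasi-likelihood test, two-sided, no block). Benjamini-Hochberg adjustment ran over 35674 genes, and an adjusted p under 0.05 was called. DESeq2 1.42.0, voom (limma 3.58.1), other scalings and filters, thinning and leaving out libraries were alternatives. The fit was tested on simulated independent counts, with the same mean in all groups except for genes changed on purpose. That setting holds no outlying libraries and no pairing, so it cannot vouch for the calls made here. Summed levels are descriptions with no test. All 33 members are named. Of the other lists, genes called in a comparison are named, up to 4 per list, except a few that are not reported here. Members and lists were chosen with earlier results of these data known. A few other genes were named after their values were seen (Scg2, Ttr, Meg3, genes of organs). Floors cover counting error only.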

Additional observations from a re-analysis of the deposited data

How the results depend on the processing

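The number of members called in WT, 0, was 8 with DESeq2, 1 with no filter on low counts, 4 with at least 10 counts in every library, and 0 to 2 on leaving out each library in turn. In cKO it was 2, and 14 with DESeq2, 19 with voom and quality weights, 6 with library totals, 4 with TMM from genes of at least 50 CPM, 1 with scaling to microglia markers, 11 with at least 10 counts in every library, 18 with the 6 libraries of that comparison, 11 without WT CL-A and WT CL-C (chosen after the data had been seen), and 0 to 5 on leaving out each library. No cKO library could be left out with a call kept. Between the genotypes in IL, voom gave 1 against 0, where it called 11.9% of all genes. Calls over all genes moved with these settings: in cKO 3.46% of all genes were called by edgeR against 6.06% of members, 18.8 against 45.2% with DESeq2, 43.3 against 57.6% with voom, 34.4 against 54.5% with the 6 libraries, 27.6 against 47.8% with at least 10 counts and 15.1 against 33.3% without both libraries. The causes were not tested. The interaction was not fitted on 6 libraries.

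The neuronal median stayed below that of all genes in both ischemia comparisons under all 24 alternatives. The distance was -0.82 to -1.80 in WT and -0.56 to -2.54 in cKO. For cKO over WT in IL it stayed below under 23, by -0.46 to -1.22. In both ischemia comparisons the median of the genes of other organs was lower still under all 24, such as -2.28 against -1.71 with DESeq2 in WT. For cKO over WT in IL the organ median lay on either side of the neuronal median. Fold changes that missed the threshold turned over for Gja1 and Aqp4. On leaving out each library, Gja1 ranged from -3.10 to 0.70 in WT, from -2.46 to 1.26 for cKO over WT in CL and from -0.25 to 3.48 in the interaction, turning without WT CL-A, and Aqp4 ranged from -2.77 to 0.16 in WT, turning without WT CL-C. Without both, Gja1 was at 0.24 in WT and 0.80 in CL, and Aqp4 at 0.61.

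Summed levels were moved by scaling. With TMM from genes of at least 50 CPM the neuronal sum was 374 CPM in CL of WT, and in cKO 251 in CL and 31.7 in IL, while library totals gave 249.6 and 32.4 in cKO. The oligodendrocyte lineage sum, 193 in CL and 317 in IL of cKO under TMM, changed direction there: it was 327 and 161 in WT and 245 and 215 in cKO with the first, and 247 and 219.7 in cKO with the second. Without Glul the astrocyte sum was 192 CPM in CL and 95.2 in IL of WT, and 148 and 101 in cKO. Without Mbp, but with Cspg4, the lineage sum was 127 in IL of WT, and 144 and 219 in cKO. Without Map2 the neuronal sum was 38.8 in IL of cKO.

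With the library number as a replicate block, edgeR called 0 members in WT and 2 in cKO, as without it, and over all genes it called 1 (higher) in WT, against 192 higher and 25 lower without it, and in cKO 701 higher and 86 lower, against 1050 and 183. Libraries were also correlated by their deviations, gene by gene, from the mean log2 CPM of their own group. By this measure, which leaves out what a group shares, same-numbered libraries correlated at -0.13 to 0.15 in WT and 0.06 to 0.21 in cKO. Not all of these pairs passed 0.1, the cutoff used, and the main fit was left unpaired. Such correlations cannot decide whether a CL and an IL library came from the same animal. The study isolated microglia from both hemispheres of its WT and cKO brains and gives 3 independent animals, so the libraries may well be paired by number. If they are, the main fit leaves that pairing out, and the fit with the block is the one that holds it. As a hint from the data only, each of the 6 cKO libraries correlated best with its own number (different numbers at most 0.049), as did 2 of 6 in WT. The block also ended calls of genes outside the members, among them that of Cd44 in WT. No paired analysis was possible between the genotypes because they share no number. Depth limits the lowest members: in WT CL-C a gene with 3 counts is at 0.880 CPM.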
